A study of Mus musculus with 6 samples.

Results

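The genes described here are 10 markers of stromal and pericyte progenitors, the mesenchymal cells of bone and marrow that surround vessels and can give rise to osteoblasts. They are *Pdgfra*, *Pdgfrb*, *Prrx1*, *Thy1*, *Nt5e*, *Eng*, *Mcam*, *Nes*, *Gli1* and *Cspg4*. Each was looked up by its gene name in 6 deposited expression tables, and FPKM (fragments relative to transcript length and to all aligned fragments of a library) were summed by name. Of the 10 genes, 8 have a named feature in all 6 tables, out of 48733 named genes in all. No feature carries the name *Pdgfra* or *Prrx1*. An unnamed feature on the same strand covers 99.6% of the span that RefSeq gives *Pdgfra*, and another covers 98.0% of *Prrx1*. These were picked after the tables were seen, so their values are given apart from those of the 8.

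The RNA came from mice of CC016/GeniUnc, an inbred strain of the Collaborative Cross, and the labels name no other allele and no treatment of the animals. By the study's account, the 3 libraries labelled bone were made from femora after the marrow had been spun out. The 3 labelled osteoblasts were grown from BMSCs (stromal cells of the bone marrow, which attach to plastic) by 8 days in medium with ascorbic acid at 50 µg/ml, beta-glycerophosphate at 10 mM and dexamethasone at 10 nM, agents that drive stromal cells to form osteoblasts. The study used 3 mice, their age and sex are not given in the sources used here, and nothing says which mouse gave which library, so p-values measure only the spread between these libraries. Below, a library is called by its label and replicate number, as in bone 3.

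Stromal progenitors are recognised by combinations of surface proteins, since none of these markers is exclusive to them. Cultured stromal cells are usually identified by *Thy1* (CD90), *Nt5e* (CD73) and *Eng* (CD105) together with the absence of leukocyte proteins. Pericytes, which wrap capillaries, carry *Pdgfrb*, *Cspg4* (NG2) and *Mcam* (CD146). *Prrx1* marks the limb mesenchyme from which long bones form, and in adult marrow *Pdgfra*, *Nes* and *Gli1* have each been used to label cells that make osteoblasts.

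The content of the libraries did not follow their labels. *Hbb-bt*, a beta-globin gene of red cells whose feature also spans *Hbb-bs*, was above 1000 FPKM in bone 3, osteoblasts 2 and osteoblasts 3, at 34838, 34268 and 48650 FPKM, and between 3.43 and 7.05 FPKM in bone 1, bone 2 and osteoblasts 1. All 7 neutrophil markers, all 10 endothelial markers, all 4 skeletal muscle markers with a feature and all 5 markers of dividing cells with a feature were higher in each of the 3 libraries rich in *Hbb-bt* than in each of the others, and all 6 macrophage markers were lower. The osteoblast gene *Col1a1* was between 1499 and 3332 FPKM in every library, but other osteoblast genes went both ways. In the libraries rich in *Hbb-bt*, *Ibsp* was lower, at 43.1 to 91.3 against 986 to 1278 FPKM. In FPKM, *Alpl* was lower too, *Bglap2* was higher, and *Col1a1*, *Col1a2*, *Sp7* and *Runx2* overlapped. With FPKM rescaled to the sum over named genes or to the 75th percentile, 5 of these 7 genes were lower and 1 higher. *Col1a1*, *Col1a2* and *Sp7* were then among the lower ones. Among osteocyte markers, *Sost* was between 15.8 and 22.7 FPKM in the 3 libraries rich in *Hbb-bt* and at most 0.198 FPKM elsewhere. *Dmp1* went the other way, at 22.5 to 24.2 against 50.0 to 127 FPKM, and *Phex* overlapped in FPKM. The labels were kept, no library was moved, and no mean, fold or test was made from the *Hbb-bt* level. In bone 2 and osteoblasts 1, 71.5% and 65.0% of all FPKM lay on unnamed features, against 27.4% to 30.7% in the other libraries, so that named genes shared a smaller part of the total there. The depth implied by the tables was 13566667 to 22586667 read pairs per library.

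Of the 8 genes, *Pdgfrb*, *Nt5e* and *Nes* were lower in each of the libraries rich in *Hbb-bt* than in each of the others, and *Gli1* was higher. *Thy1*, *Eng*, *Mcam* and *Cspg4* overlapped. Among all 12111 genes with a mean of at least 1 FPKM other than *Hbb-bt*, 16.9% were lower in all 3 of these libraries and 38.4% higher. The 8 genes gave 37.5% lower and 12.5% higher. These are counts of 3 and 1 among 8 genes. The same genes had the same pattern with TPM, with FPKM rescaled to the sum over named genes and with FPKM rescaled to the 75th percentile, but the share of all genes moved with the scaling. After rescaling to named genes it was 48.6% lower and 21.3% higher. *Gli1* reached the mean of 1 FPKM only through the libraries where it was high. None of the 8 separated the libraries labelled bone from those labelled osteoblasts, where 0.438% of all genes were lower in all 3 libraries labelled osteoblasts and 0.479% higher. In such bulk RNA, fewer cells of a type and less RNA per cell cannot be told apart.

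**Figure D1:**
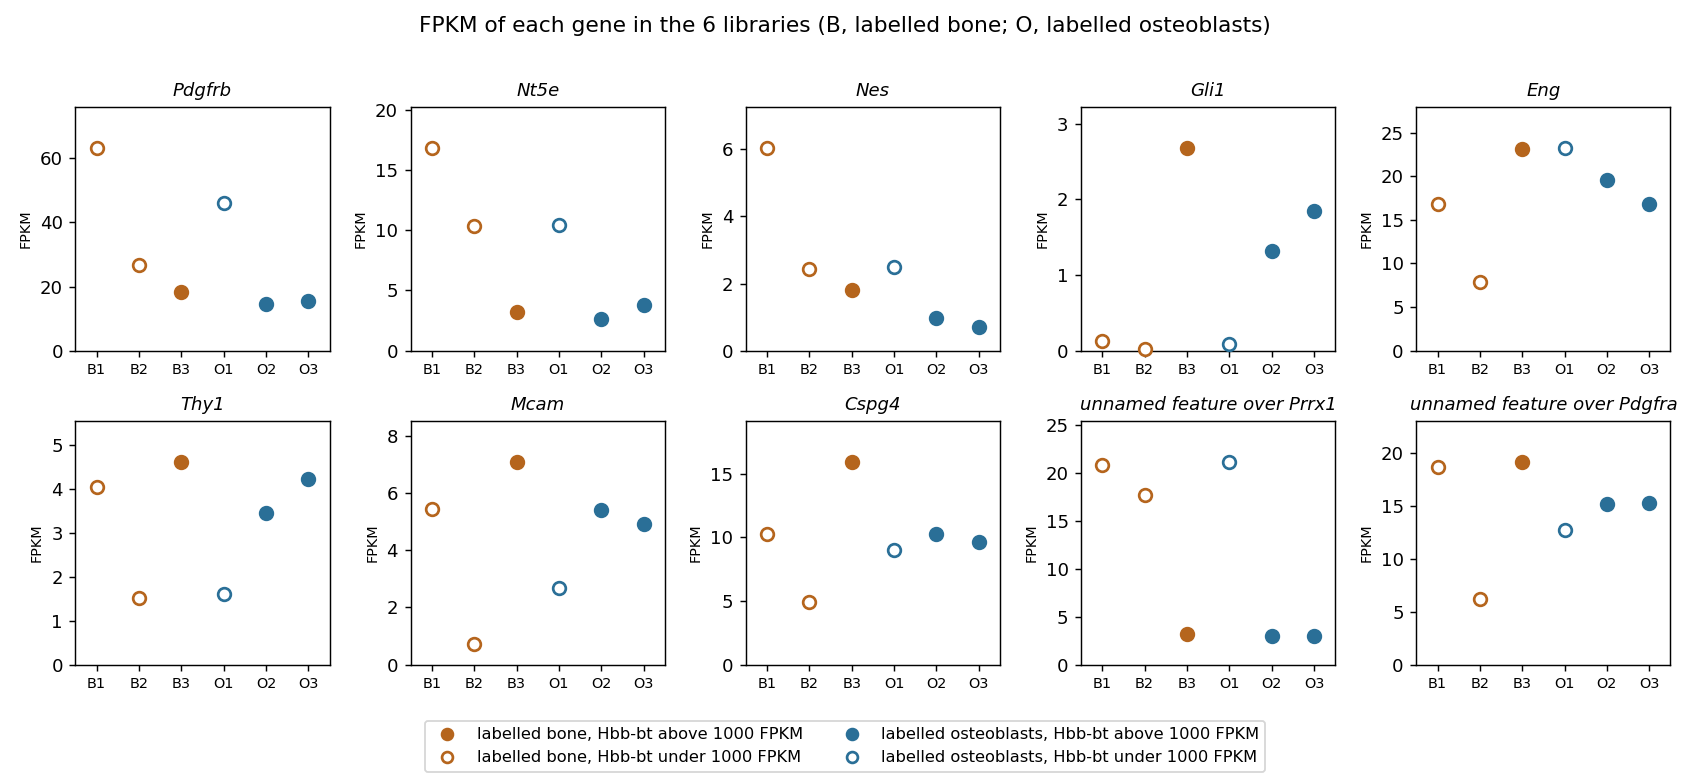
FPKM (vertical axes, linear, each from 0) of the 8 named genes and of the unnamed features over *Prrx1* and *Pdgfra* in each of the 6 libraries (B1 to B3, labelled bone, O1 to O3, labelled osteoblasts), 1 point per library, filled where *Hbb-bt* was above 1000 FPKM. The filled points of *Pdgfrb*, *Nt5e*, *Nes* and the *Prrx1* feature lie below all open points, those of *Gli1* above, and those of the other panels overlap with them.

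The PDGF receptors are tyrosine kinases that bind dimers of platelet-derived growth factors, and *Pdgfrb* on pericytes receives PDGF-B from the endothelium. *Pdgfrb* (Chr. 18, plus strand, 61045150 to 61085061, GRCm38) was at 63.3, 26.8 and 18.3 FPKM in bone 1, 2 and 3 and at 46.0, 14.5 and 15.5 FPKM in osteoblasts 1, 2 and 3. It was highest in bone 1 and osteoblasts 1, and the 3 lowest values were those of the libraries rich in *Hbb-bt*. Among genes of at least 1 FPKM in a library it stood above 90.7% to 93.7% of them in bone 1, bone 2 and osteoblasts 1, and above 73.3% to 79.4% in the other libraries. The unnamed feature over *Pdgfra* (Chr. 5, plus strand, 75151531 to 75198215) was at 18.7, 6.21 and 19.2 FPKM in bone 1 to 3 and at 12.7, 15.1 and 15.3 FPKM in osteoblasts 1 to 3. Its lowest value was in bone 2 and its highest in bone 3, so it did not follow *Pdgfrb*. The ratio of *Pdgfrb* to the *Pdgfra* feature, which does not depend on the scaling of a library, was 3.38, 4.32 and 3.61 in bone 1, bone 2 and osteoblasts 1 and 0.951, 0.955 and 1.02 in bone 3, osteoblasts 2 and osteoblasts 3.

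Of the 4 PDGF ligands, *Pdgfa* and *Pdgfc* were lower in each library rich in *Hbb-bt* than in each of the others under every scaling. *Pdgfa*, which binds the alpha receptor, was at 37.4, 17.2 and 6.62 FPKM in bone 1 to 3 and at 27.9, 4.16 and 5.36 FPKM in osteoblasts 1 to 3. *Pdgfc*, another ligand of the alpha receptor, was at 15.5, 10.1 and 1.88 FPKM in bone 1 to 3 and at 9.48, 1.28 and 2.13 FPKM in osteoblasts 1 to 3. *Pdgfb*, between 3.69 and 9.58 FPKM, overlapped under every scaling. *Pdgfd*, between 1.83 and 6.79 FPKM, overlapped in FPKM and TPM and was lower in all 3 libraries after either rescaling.

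*Nt5e*, *Thy1* and *Eng*, the 3 surface markers of cultured stromal cells, did not vary together. *Nt5e* encodes the ectonucleotidase that turns AMP into adenosine outside the cell (Chr. 9, plus strand, 88327197 to 88372092). It was at 16.8, 10.3 and 3.24 FPKM in bone 1 to 3 and at 10.4, 2.60 and 3.76 FPKM in osteoblasts 1 to 3. All values of the 3 libraries rich in *Hbb-bt* were below 4 FPKM and all others above 10 FPKM, the widest range on the log2(FPKM + 1) scale among the 8 genes, at 2.31 against a median of 1.45 over all genes tested. As a ratio of highest to lowest FPKM, *Nt5e*, at 6.48, was exceeded by *Gli1* at 114, *Mcam* at 9.62 and *Nes* at 8.49. *Thy1*, a small glycoprotein anchored to the membrane by lipid (Chr. 9, plus strand, 44043384 to 44048579), was at 4.04, 1.52 and 4.62 FPKM in bone 1 to 3 and at 1.60, 3.46 and 4.24 FPKM in osteoblasts 1 to 3. Its range of 1.16 on the log2(FPKM + 1) scale was the narrowest of the 8, though as a ratio *Eng*, at 2.95, was below *Thy1*, at 3.04. The 2 lowest values of *Thy1* were in bone 2 and osteoblasts 1, the libraries with most FPKM on unnamed features. The ratio of *Nt5e* to *Thy1* was 4.17, 6.78 and 6.50 in bone 1, bone 2 and osteoblasts 1 and 0.701, 0.752 and 0.888 in bone 3, osteoblasts 2 and osteoblasts 3.

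*Thy1* is also carried by T cells in the mouse. All 7 T cell markers were higher in each library rich in *Hbb-bt*. Their summed level ranged from 0 to 31.2 FPKM in the libraries labelled bone and from 0 to 43.1 FPKM in those labelled osteoblasts, and all 7, among them the receptor chains *Cd3e*, *Cd3d* and *Cd3g*, were listed at 0 in bone 2 and osteoblasts 1. *Thy1* was at 1.52 and 1.60 FPKM in those 2 libraries. After rescaling to named genes it was at 2.78 FPKM in bone 2 and 2.67 FPKM in osteoblasts 1. Both were then above osteoblasts 2, at 2.61 FPKM, and bone 1 was the highest, at 4.41 FPKM. Before rescaling, *Thy1* in bone 1, where the summed T cell markers came to 0.122 FPKM, was at 4.04 FPKM. This was within its range of 3.46 to 4.62 FPKM in the libraries rich in *Hbb-bt*. Any part of T cells in the other *Thy1* values was not tested.

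The other genes of adenosine turnover went in both directions. Of 9 genes listed 8 had a named feature and 6 passed the filter, with *Enpp1* and *Slc29a1* lower and *Adora2a* and *Adora3* higher in each library rich in *Hbb-bt* under every scaling. *Slc29a1*, a nucleoside transporter, was at 223, 112 and 71.4 FPKM in bone 1 to 3 and at 139, 54.4 and 61.7 FPKM in osteoblasts 1 to 3. *Adora2a*, an adenosine receptor, was at most 0.0813 FPKM in bone 1, bone 2 and osteoblasts 1 and between 2.55 and 3.50 FPKM in the other libraries. *Entpd1*, which supplies AMP to *Nt5e*, was between 5.22 and 11.2 FPKM and overlapped, except that after rescaling to named genes it was lower in the 3 libraries.

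*Eng* encodes endoglin, a co-receptor for TGF-beta and BMP ligands that is also strongly made by endothelium (Chr. 2, plus strand, 32646595 to 32682669). It was at 16.8, 7.89 and 23.1 FPKM in bone 1 to 3 and at 23.3, 19.5 and 16.8 FPKM in osteoblasts 1 to 3. In FPKM, osteoblasts 1 and bone 3, which differ widely in *Hbb-bt*, had nearly equal and highest values, and bone 2 stood below the rest. This did not hold after rescaling to named genes. Osteoblasts 1 was then at 38.8 FPKM and bone 3 at 17.2 FPKM, and bone 2, at 14.4 FPKM, was above osteoblasts 3, at 13.3 FPKM. *Eng* was the highest of the 8 genes in the 3 libraries rich in *Hbb-bt*, whereas *Pdgfrb* was the highest in the other 3. The ratio of *Pdgfrb* to *Eng* was 3.78, 3.40 and 1.98 in bone 1, bone 2 and osteoblasts 1 and 0.789, 0.741 and 0.925 in bone 3, osteoblasts 2 and osteoblasts 3. The 3' end of *Eng* overlaps *Fpgs* on the other strand by 61 bp. The library kit does not mark strand, and *Fpgs* was between 2.32 and 10.9 FPKM.

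All 10 endothelial markers were higher in each library rich in *Hbb-bt*, under every scaling. Their summed level ranged from 3.06 to 165 FPKM in the libraries labelled bone and from 7.34 to 159 FPKM in those labelled osteoblasts. *Tek* and *Cldn5*, a vessel receptor and a junction protein, were listed at 0 in bone 2. *Eng* was at 7.89 FPKM in bone 2, where the 10 markers summed to 3.06 FPKM, and at 23.3 FPKM in osteoblasts 1, where they summed to 7.34 FPKM. The ratio of *Eng* to *Pecam1*, the adhesion protein of endothelial junctions, was 8.76, 90.6 and 44.3 in bone 1, bone 2 and osteoblasts 1 and 1.49, 0.932 and 0.805 in bone 3, osteoblasts 2 and osteoblasts 3. The part of endothelial RNA in *Eng* within the libraries rich in *Hbb-bt* was not tested.

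Of 10 genes listed for the endoglin receptor complex, 9 had a named feature and 7 passed the filter. The receptors *Tgfbr1* and *Bmpr2* and the ligands *Tgfb2* and *Tgfb3* were lower in each library rich in *Hbb-bt* under every scaling. *Tgfb3* was at 45.4, 15.7 and 6.06 FPKM in bone 1 to 3 and at 20.5, 5.38 and 4.44 FPKM in osteoblasts 1 to 3. *Tgfbr3*, the co-receptor related to endoglin, was between 5.14 and 20.9 FPKM and overlapped under every scaling. *Tgfb1* was higher in all 3 of these libraries, between 37.6 and 47.3 FPKM against 12.8 to 30.7 FPKM, but overlapped after either rescaling. The endothelial ligands *Gdf2* and *Bmp10* were listed at 0 in every library.

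The pericyte markers *Mcam* and *Cspg4* overlapped between the libraries rich in *Hbb-bt* and the others. *Mcam*, an adhesion protein of pericytes and endothelium (Chr. 9, plus strand, 44134469 to 44142727), was at 5.44, 0.738 and 7.10 FPKM in bone 1 to 3 and at 2.70, 5.41 and 4.93 FPKM in osteoblasts 1 to 3. Bone 2 was far below the rest, and after rescaling to the sum over named genes it was still the lowest, at 1.35 against 3.89 to 5.95 FPKM. *Cspg4*, a proteoglycan of the pericyte surface (Chr. 9, plus strand, 56865033 to 56899870), was at 10.3, 4.90 and 15.9 FPKM in bone 1 to 3 and at 8.99, 10.2 and 9.64 FPKM in osteoblasts 1 to 3. Its 3 values under the label osteoblasts lay within 1.24 FPKM of each other, whereas those under the label bone spread from bone 2 as the lowest to bone 3 as the highest. This contrast depended on the scaling. After rescaling to named genes *Cspg4* was at 11.2, 8.94 and 11.8 FPKM in bone 1 to 3. The rescaled values in osteoblasts 1 to 3 were 15.0, 7.72 and 7.61 FPKM, a wider spread than under the label bone. *Pdgfrb* exceeded *Cspg4* by ratios of 5.11 to 6.18 in bone 1, bone 2 and osteoblasts 1 and of 1.15 to 1.61 in the other libraries.

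Other pericyte markers went in both directions. All 10 listed had a named feature and 8 passed the filter. *Rgs4* and *Ano1* were lower, and *Kcnj8* and *Abcc9* higher, in each library rich in *Hbb-bt* under every scaling. *Kcnj8* and *Abcc9* encode the pore and the regulator of a potassium channel of pericytes. *Kcnj8* was listed at 0 in bone 1, bone 2 and osteoblasts 1 and was between 1.58 and 2.51 FPKM in the others, and *Abcc9* was at most 0.263 FPKM and between 4.91 and 8.30 FPKM in the same libraries. *Rgs5*, the regulator of G protein signalling often used for pericytes, was at 9.81, 2.49 and 4.84 FPKM in bone 1 to 3 and at 2.59, 5.90 and 5.60 FPKM in osteoblasts 1 to 3. *Rgs5* overlapped, as *Mcam* and *Cspg4* did, and so did *Notch3*. *Cox4i2* was higher in the 3 libraries in FPKM and after rescaling to the 75th percentile and overlapped otherwise.

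Smooth muscle shares *Pdgfrb*, *Mcam* and *Cspg4* with pericytes. Of its 6 markers with a feature, *Acta2*, *Tagln*, *Cnn1* and *Lmod1* were lower in each library rich in *Hbb-bt* under every scaling, and *Smtn* was higher in FPKM but overlapped with TPM and after rescaling to named genes. The summed level ranged from 101 to 695 FPKM in the libraries labelled bone and from 86.6 to 306 FPKM in those labelled osteoblasts, and none of the 6 was listed at 0. *Acta2*, the smooth muscle actin that cultured stromal cells also make, was at 351, 136 and 11.8 FPKM in bone 1 to 3 and at 144, 8.03 and 6.79 FPKM in osteoblasts 1 to 3. *Acta2* was thus high in the same 3 libraries as *Pdgfrb*, and its part in the *Pdgfrb* values was not tested.

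*Nes* encodes nestin, an intermediate filament protein of progenitor cells, muscle precursors and some vessels (Chr. 3, plus strand, 87971078 to 87980451). It was at 6.04, 2.42 and 1.82 FPKM in bone 1 to 3 and at 2.48, 0.983 and 0.712 FPKM in osteoblasts 1 to 3. Bone 1 had more than any other library, and the 3 lowest were those rich in *Hbb-bt*. In these 3, *Nes* was the lowest of the 8 genes, whereas *Gli1* was the lowest in the other 3. Between bone 2 at 2.42 FPKM and bone 3 at 1.82 FPKM, the nearest values on either side, the gap was small in FPKM. After rescaling to named genes the nearest values were 4.13 FPKM in osteoblasts 1 and 1.35 FPKM in bone 3.

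Of 5 filament proteins that assemble with or near nestin, 4 passed the filter. *Vim*, the vimentin filament of mesenchymal cells, was lower in each library rich in *Hbb-bt*, at 545, 260 and 81.3 FPKM in bone 1 to 3 and at 386, 118 and 104 FPKM in osteoblasts 1 to 3. *Des*, the muscle filament, was higher in all 3, at 2.39, 0.615 and 61.0 FPKM in bone 1 to 3 and at 0.971, 10.3 and 24.9 FPKM in osteoblasts 1 to 3, and *Gfap* was higher in them too, under every scaling. The 4 skeletal muscle markers with a feature, *Acta1*, *Ckm*, *Tnnt3* and *Actn3*, summed to between 1.60 and 983 FPKM under the label bone and between 3.65 and 484 FPKM under the label osteoblasts, and *Tnnt3* was listed at 0 in bone 1, bone 2 and osteoblasts 1. The 3 libraries with the lowest *Nes* were thus those with the most muscle transcripts, whose part in the *Nes* values was not tested. The satellite cell factors *Pax7* and *Myf5* did not exceed 0.0996 FPKM in any library. Of the 8 satellite and Schwann cell markers 3 were higher in each library rich in *Hbb-bt* and none lower, and their sum overlapped, at 8.20 to 25.2 FPKM under the label bone and 9.58 to 25.7 FPKM under the label osteoblasts.

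*Prrx1* encodes a homeobox factor of limb mesenchyme. The unnamed feature over it (Chr. 1, minus strand, 163245119 to 163313710) was at 20.8, 17.7 and 3.25 FPKM in bone 1 to 3 and at 21.2, 3.00 and 2.95 FPKM in osteoblasts 1 to 3. No other of the 10 genes split the libraries so widely on the low side: the 3 libraries rich in *Hbb-bt* lay within 0.295 FPKM of each other, and the others lay between 17.7 and 21.2 FPKM. The ratio of this feature to that over *Pdgfra* was 1.11, 2.86 and 1.66 in bone 1, bone 2 and osteoblasts 1 and 0.169, 0.198 and 0.193 in bone 3, osteoblasts 2 and osteoblasts 3. Of 11 other factors of limb mesenchyme 10 had a named feature and 5 passed the filter. *Twist1*, *Tbx18*, *Foxc2* and *Shox2* were lower in each library rich in *Hbb-bt* under every scaling, and *Osr1* overlapped except after rescaling to named genes. *Shox2*, a regulator of limb bone growth, was at 10.8, 7.36 and 2.40 FPKM in bone 1 to 3 and at 8.13, 1.91 and 2.20 FPKM in osteoblasts 1 to 3. Below the filter, *Meox1*, *Meox2* and *Osr2* were higher in those 3 libraries, at no more than 1.74 FPKM.

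*Gli1* is the transcription factor that hedgehog signals switch on, and its level is used as a readout of the pathway. It lies on Chr. 10 (minus strand, 127329882 to 127341974) and was at 0.134, 0.0236 and 2.68 FPKM in bone 1 to 3 and at 0.0851, 1.31 and 1.85 FPKM in osteoblasts 1 to 3. On a transcript of 3665 bp, the longest coding transcript of the gene in GENCODE vM1, these values correspond to about 8.14, 1.26 and 164 read pairs and to about 4.23, 109 and 115 read pairs. Bone 2 is under the 0.0559 FPKM that 3 read pairs would give there, so that *Gli1* was not detected at this depth in bone 2. Bone 3, osteoblasts 2 and osteoblasts 3 were well above this floor. The 3' end of *Gli1* overlaps *Arhgap9* on the other strand by 62 bp. *Arhgap9* was at 13.3, 6.10 and 40.2 FPKM in bone 1 to 3 and at 8.04, 36.9 and 38.4 FPKM in osteoblasts 1 to 3, higher in the same 3 libraries, and without strand its reads in the overlap cannot be told from those of *Gli1*.

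The hedgehog pathway was read from 14 genes, of which 13 had a named feature and 8 passed the filter. *Ihh*, the ligand made by growth plate cartilage, was at 0.223, 0.187 and 3.64 FPKM in bone 1 to 3, was listed at 0 in osteoblasts 1 and was at 2.69 and 2.75 FPKM in osteoblasts 2 and 3. *Ptch1*, the receptor and itself a target of the pathway, was at 2.23, 1.13 and 6.97 FPKM in bone 1 to 3 and at 2.05, 4.96 and 6.82 FPKM in osteoblasts 1 to 3. Both were higher in each library rich in *Hbb-bt* under every scaling, as was *Gli1*. *Hhip*, a further target, was higher in the same libraries as well but did not pass the filter, at no more than 0.649 FPKM.

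The signal transducer *Smo* and the regulators *Kif7* and *Gli3* went the other way, lower in each library rich in *Hbb-bt* under every scaling. *Smo* was at 21.2, 9.40 and 8.38 FPKM in bone 1 to 3 and at 13.2, 8.21 and 7.29 FPKM in osteoblasts 1 to 3. *Gli3*, the main repressor among the GLI factors, was between 1.26 and 1.75 FPKM in the 3 libraries and between 1.85 and 3.75 FPKM in the others. *Sufu*, *Gas1* and *Cdon* overlapped, and so did *Gli2* below the filter. *Shh* was listed at 0 in every library. The pathway genes that are targets of GLI factors were thus on the same side as *Gli1*, whereas *Smo* and *Gli3* were on the side of *Pdgfrb*.

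**Figure D2:**
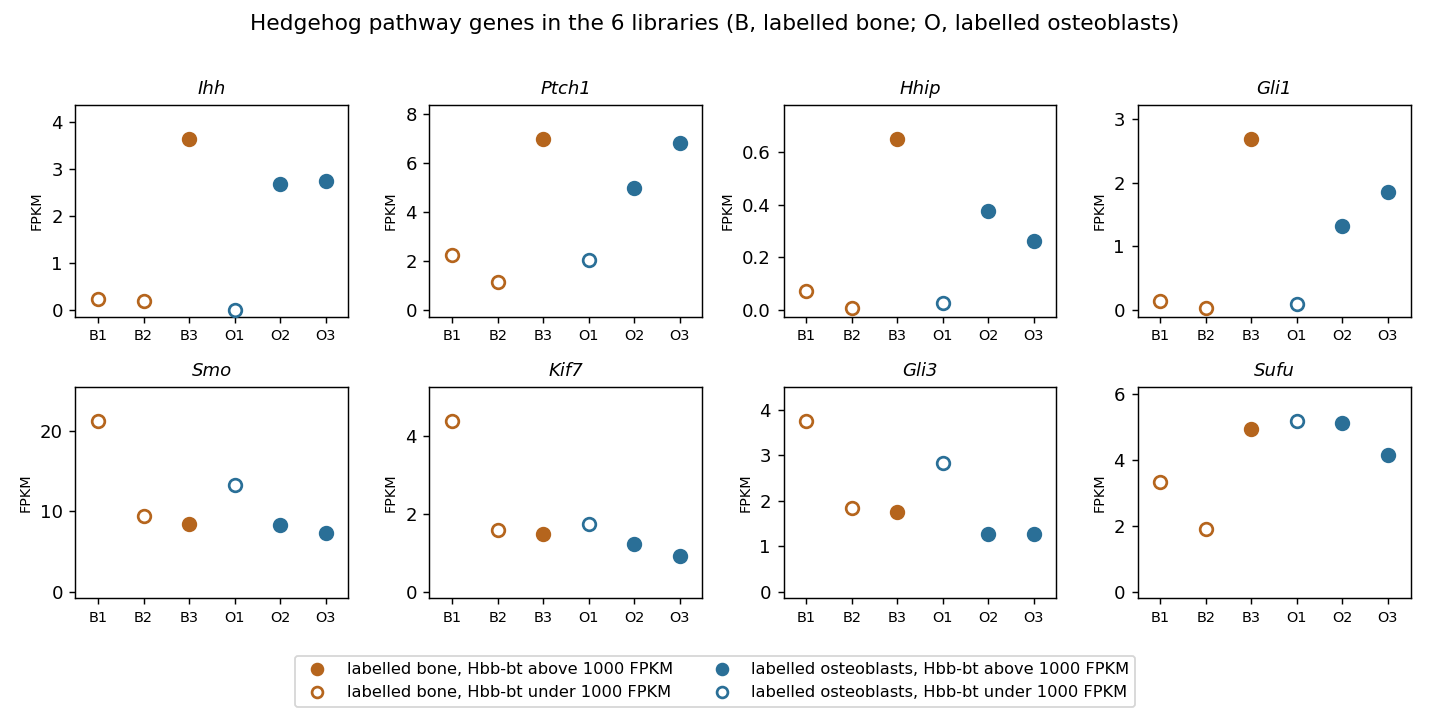
FPKM (vertical axes, linear) of *Gli1* and of other hedgehog pathway genes, 1 point per library (B1 to B3, labelled bone, O1 to O3, labelled osteoblasts), filled where *Hbb-bt* was above 1000 FPKM. The filled points lie above all open points for *Ihh*, *Ptch1*, *Hhip* and *Gli1*, below them for *Smo*, *Kif7* and *Gli3*, and among them for *Sufu*.

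Some of the leukocyte markers whose absence is part of the usual definition of stromal cells were present in every library. Of such genes, *Cd34*, *H2-Ab1* and *Cd79a* were higher in each library rich in *Hbb-bt*, *Cd14* was lower and *Ptprc* and *Itgam* overlapped in FPKM. The B cell gene *Cd79a* was listed at 0 in bone 1, bone 2 and osteoblasts 1. *Ptprc* (CD45), carried by leukocytes in general, was at 29.0, 18.4 and 12.9 FPKM in bone 1 to 3 and at 11.9, 28.8 and 39.3 FPKM in osteoblasts 1 to 3. The 3 libraries with the most *Pdgfrb* and *Nt5e* therefore contained *Ptprc* as well. Their 6 macrophage markers summed to 2762, 1397 and 1580 FPKM in bone 1, bone 2 and osteoblasts 1, against 403 to 533 FPKM in the other libraries. What these cells contribute to the marker values was not tested.

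Other markers of stromal progenitors were mostly on the side of *Pdgfrb* and *Nt5e* or overlapped. Of 14 listed 12 had a named feature and 11 passed the filter, and of these *Grem1*, *Itga11*, *Cd248*, *Itgav* and *Alcam* were lower in each library rich in *Hbb-bt* under every scaling. *Grem1*, a secreted BMP antagonist, was at 37.5, 22.0 and 0.536 FPKM in bone 1 to 3 and at 20.0, 1.41 and 1.64 FPKM in osteoblasts 1 to 3. *Lepr*, the leptin receptor that marks stromal cells around marrow sinusoids, was at 14.5, 2.12 and 4.94 FPKM in bone 1 to 3 and at 7.14, 10.8 and 7.86 FPKM in osteoblasts 1 to 3, and it overlapped. *Dpp4* was listed at 0 in bone 1, bone 2 and osteoblasts 1 and was between 1.44 and 3.23 FPKM in the others. Over the 8 lists of related genes, 23 of the 53 genes that passed the filter, or 43.4%, were lower in each of the libraries rich in *Hbb-bt* and 11, or 20.8%, were higher. The shares over all genes, given above, were 16.9% and 38.4%. After rescaling to named genes the lists gave 56.6% and 17.0%, beside 48.6% and 21.3% of all genes. These counts depend on the filter. Of the 11 higher genes, 7 (*Ihh*, *Adora2a*, *Adora3*, *Gfap*, *Dpp4*, *Kcnj8* and *Abcc9*) passed it only through the libraries where they were high, and so did 2 of the 23 lower genes, *Tbx18* and *Foxc2*.

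Since the 8 genes vary in different directions, their make-up was compared within each library, which does not depend on its scaling. *Pdgfrb* gave 48.1% to 51.5% of the summed FPKM of the 8 genes in bone 1, bone 2 and osteoblasts 1 and 23.8% to 27.0% in bone 3, osteoblasts 2 and osteoblasts 3. The share of *Cspg4* was 8.34% to 9.41% in the former and 16.8% to 20.8% in the latter, and that of *Mcam* was 1.35% to 4.43% and 8.57% to 9.33%. *Eng* took 13.7% to 24.4% and 29.2% to 33.7%. Shares of 1 sum are tied to each other, so a smaller share of *Pdgfrb* raises those of the other genes, and the FPKM of *Eng*, *Mcam* and *Cspg4* overlapped. The sum itself, from 54.6 FPKM in bone 2 to 123 FPKM in bone 1, did not separate them.

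**Figure D3:**
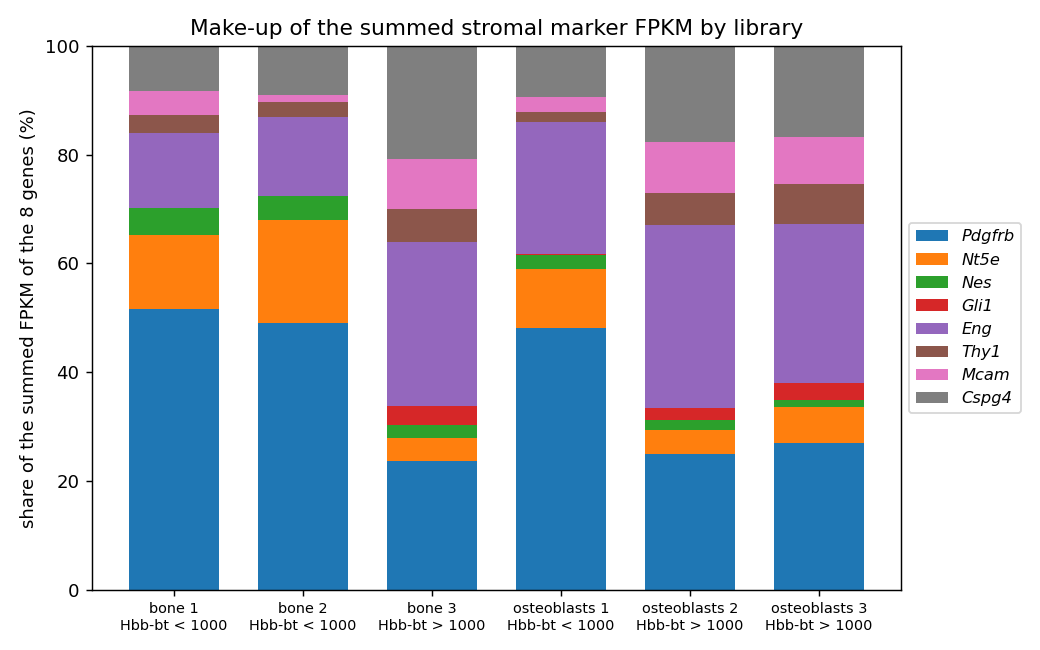
Share of each of the 8 named genes in their summed FPKM (vertical axis, percent, 0 to 100) in each library, with its label and whether *Hbb-bt* was above 1000 FPKM under each bar. *Pdgfrb* fills 48.1% to 51.5% of the bars of bone 1, bone 2 and osteoblasts 1 and at most 27.0% of the others, where *Eng* is the largest part.

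Windows of 300 bases, from 250 before an annotated RefSeq start to 50 after it, were searched for 7 of the 10 genes (build GRCm38.p6). Shown here are those of *Nt5e*, *Nes* and *Prrx1*, whose levels were low in the same 3 libraries, and that of *Eng*, whose levels overlapped. The lines read 5′ to 3′ on the strand of the gene, and capitals mark matches to GGGCGG, the core of a GC box, on either strand. *Nt5e* is at chr9:88327359-88327658 (plus), *Nes* at chr3:87970843-87971142 (plus), *Prrx1* at chr1:163313601-163313900 (minus) and *Eng* at chr2:32646345-32646644 (plus).
Nt5e: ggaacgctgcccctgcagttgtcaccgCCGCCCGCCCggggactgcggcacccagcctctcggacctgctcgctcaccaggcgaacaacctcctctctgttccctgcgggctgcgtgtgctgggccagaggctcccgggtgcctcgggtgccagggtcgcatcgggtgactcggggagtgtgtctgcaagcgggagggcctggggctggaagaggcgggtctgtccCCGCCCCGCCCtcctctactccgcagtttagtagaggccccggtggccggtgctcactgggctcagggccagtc
Nes: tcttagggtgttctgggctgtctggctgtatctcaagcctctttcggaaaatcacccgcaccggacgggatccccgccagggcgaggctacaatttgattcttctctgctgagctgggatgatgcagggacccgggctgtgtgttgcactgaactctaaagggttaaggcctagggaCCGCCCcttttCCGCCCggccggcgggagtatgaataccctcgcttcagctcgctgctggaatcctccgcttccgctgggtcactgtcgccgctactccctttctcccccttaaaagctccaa
Prrx1: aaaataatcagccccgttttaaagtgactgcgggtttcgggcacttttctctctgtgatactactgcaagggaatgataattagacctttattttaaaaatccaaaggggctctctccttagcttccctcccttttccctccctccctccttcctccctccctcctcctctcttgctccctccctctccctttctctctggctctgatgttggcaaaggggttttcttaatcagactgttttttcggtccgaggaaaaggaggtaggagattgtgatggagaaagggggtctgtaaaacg
Eng: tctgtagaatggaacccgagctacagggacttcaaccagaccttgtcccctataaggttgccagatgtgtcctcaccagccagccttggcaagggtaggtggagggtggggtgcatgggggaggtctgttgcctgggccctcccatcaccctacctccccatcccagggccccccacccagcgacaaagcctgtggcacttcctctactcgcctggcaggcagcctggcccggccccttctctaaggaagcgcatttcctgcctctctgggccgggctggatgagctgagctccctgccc

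The window of *Nt5e* holds 4 matches, 2 pairs that each overlap, at positions -223 and -219 and at -24 and -19 from the start, and that of *Nes* holds 2, at -73 and -62. Those of *Prrx1* and *Eng* hold none. In all, 4 of the 7 windows hold GGGCGG, the others being those of *Mcam* and *Cspg4*, against 35.7% of the 32851 RefSeq windows of this length. The G and C content was 71.0% for *Nt5e*, 58.7% for *Nes*, 47.7% for *Prrx1* and 63.3% for *Eng*, beside a median of 52.7% over all windows. Searches on both strands for CCAAT, as in a CCAAT box, found none in the 7 windows and a match in 37.4% of all. The TATA box letters TATAAA were in none of the 7 and in 13.6% of all, and the E-box CAGCTG in none of the 7 and in 16.3% of all. The core of GLI sites, read as ACCACCC, was in none of the 7 and in 4.61% of all. *Nt5e*, *Nes* and *Prrx1* thus shared no searched letters that *Eng* lacked. *Pdgfrb* was not searched. These are matches of letters only.

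The comparison that the labels imply, cultured osteoblasts against bone, gave no difference past the threshold for any of the 8 genes. With limma on log2(FPKM + 1), 0 of 12112 genes passed an adjusted p of 0.05 (0% higher and 0% lower under the label osteoblasts), and 17 genes had an unadjusted p under 0.05, none of them among the 8. The adjusted p was 0.999 for each of the 8, and over 115 values of the 8 genes under other settings the smallest was 0.377. Without bone 3 the test called 182 genes and without osteoblasts 1 it called 300, again with none of the 8. Of the 8 differences, 4 were above 0 and 4 below, with a median of -0.03 beside 0.12 over all genes tested.

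With all 6 libraries, *Nes* had the largest difference among the 8, though not when bone 1, bone 3 or osteoblasts 1 was left out. It was -0.84 on the log2(FPKM + 1) scale (SE 0.51, 95% interval -1.99 to 0.31), with means of 3.43 ± 2.29 FPKM (SD, n = 3) under the label bone and 1.39 ± 0.951 FPKM under the label osteoblasts. *Nt5e* differed by -0.71 (SE 0.65, interval -2.18 to 0.76), from 10.1 ± 6.80 to 5.59 ± 4.21 FPKM. *Pdgfrb* differed by -0.51 (SE 0.65, interval -1.97 to 0.95), from 36.1 ± 23.9 to 25.3 ± 17.9 FPKM. These 3 kept their sign whichever library was left out, but their size moved, from -1.15 to -0.45 for *Nes*, from -1.29 to -0.26 for *Nt5e* and from -1.02 to -0.02 for *Pdgfrb*, each smallest without bone 1. *Eng* differed by 0.41 (SE 0.50, interval -0.74 to 1.55), from 15.9 ± 7.66 to 19.9 ± 3.24 FPKM, and came to -0.00071 without bone 2.

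For the other 4 genes the means under the labels nearly coincided. *Thy1* was at 3.39 ± 1.65 and 3.10 ± 1.36 FPKM, *Mcam* at 4.43 ± 3.30 and 4.34 ± 1.45 FPKM, *Cspg4* at 10.4 ± 5.52 and 9.62 ± 0.618 FPKM and *Gli1* at 0.947 ± 1.51 and 1.08 ± 0.906 FPKM (mean ± SD, n = 3, bone and then osteoblasts). Their differences were between -0.08 and 0.25 on the log2(FPKM + 1) scale with standard errors of 0.49 to 0.63, and the sign of each changed when some library was left out. The 95% interval of each of the 8 genes extended past 1 in size on at least 1 side, so a change of that size could not be told from none. The *Pdgfra* feature was at 14.7 ± 7.36 and 14.4 ± 1.43 FPKM (0.11, SE 0.52) and the *Prrx1* feature at 13.9 ± 9.38 and 9.04 ± 10.5 FPKM (-0.77, SE 0.84), with an adjusted p of 0.999 in limma when both were added to the table. Because limma called no gene with all 6 libraries, none of the 20 lists of other genes could hold a called gene.

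**Figure D4:**
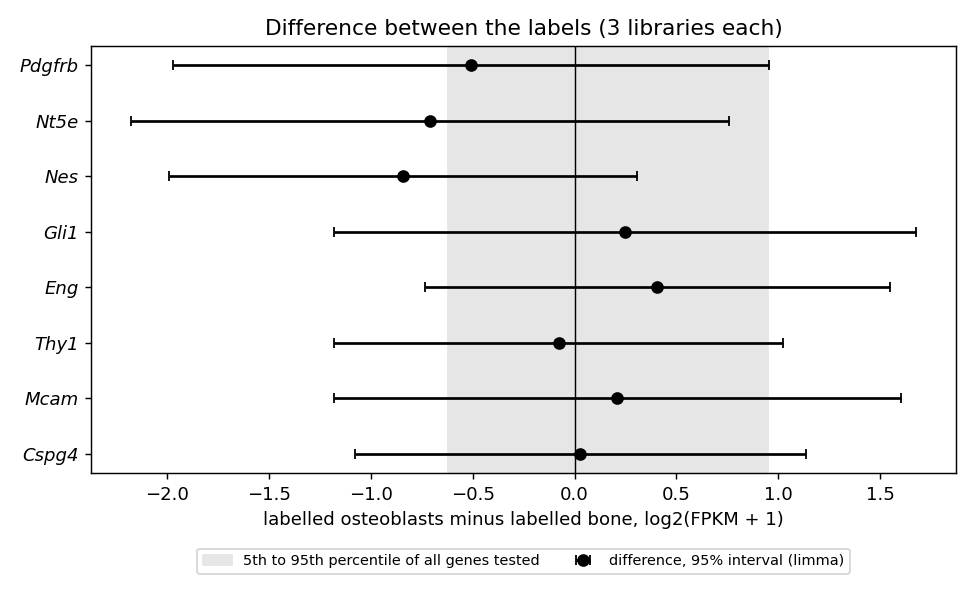
Difference between the 3 libraries labelled osteoblasts and the 3 labelled bone for each of the 8 genes, on the log2(FPKM + 1) scale (horizontal axis), with the 95% interval from limma. The grey band spans the 5th to 95th percentile of the differences of all genes tested, -0.62 to 0.95, and every interval includes 0.

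The genes whose levels over the 6 libraries were most like those of each marker were found by the root-mean-square difference between profiles of log2(FPKM + 1), each centred on its mean. Nearest to *Pdgfrb* were *Nkd1*, *P3h3* and *Yap1* (0.08, 0.09 and 0.09), and nearest to *Nt5e* were *Abcc3* and *Msantd4* (0.06 and 0.10). *Abcc3* was at 26.4, 15.7 and 5.06 FPKM in bone 1 to 3 and at 15.9, 4.00 and 6.41 FPKM in osteoblasts 1 to 3. For *Nes* they were *Efnb1*, *Fermt2* and *Sh3bp4* (0.12, 0.13 and 0.13), and for the *Prrx1* feature *Hhipl1*, *Inhbb* and *Asb4* (0.08, 0.12 and 0.14). The 3 nearest to *Gli1* were *Gm22973*, *Il17rb* and *Gm21057* (0.07, 0.07 and 0.08). Adding 1 to each FPKM flattens low values, so genes with near profiles need not vary by like factors. *Gm22973* was between 39.2 and 135 FPKM, whereas *Gli1* was between 0.0236 and 2.68 FPKM. Likewise *Nkd1* was between 0.241 and 3.80 FPKM, beside 14.5 to 63.3 FPKM for *Pdgfrb*. *Il17rb* was at 0.0763, 0.105 and 3.07 FPKM in bone 1 to 3 and at 0.146, 1.53 and 1.99 FPKM in osteoblasts 1 to 3.

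The nearest profiles to the overlapping markers were those of *Ankrd52*, *Npff* and *Anapc2* for *Eng* (0.07, 0.10 and 0.11), *Srf* and *Slc25a12* for *Thy1* (0.05 and 0.06), *Wdr86*, *Fxyd1* and *Cib1* for *Mcam* (0.12, 0.14 and 0.15) and *Rpusd1*, *Fam78b* and *Qtrt1* for *Cspg4* (0.07, 0.09 and 0.11). For the *Pdgfra* feature they were *Emc1*, *Anapc11* and *Gga2* (0.06, 0.08 and 0.09). Among the 10 genes themselves, *Pdgfrb* and *Nt5e* were each other's nearest at 0.29, and so were the *Pdgfra* feature and *Cspg4* at 0.19. *Nes* was nearest to *Pdgfrb* at 0.31, *Eng* to *Cspg4* at 0.25, and *Thy1* and *Mcam* to the *Pdgfra* feature at 0.28 each. *Gli1* had the farthest nearest neighbour, *Thy1* at 0.49.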

How the data were processed

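RNA-seq was available for 3 libraries labelled bone and 3 labelled osteoblasts. The authors made libraries with a TruSeq RNA v2 kit, aligned the read pairs of 75 bp each to GRCm38 and estimated expression, with HISAT2 2.0.5, SAMtools 1.7 and StringTie 1.3.3 in the submitters' processing notes. For each feature the authors deposited coverage, FPKM (scaled to all aligned reads) and TPM (rescaled within the library), and no read counts. Coverage per FPKM gave the depth, and 3 read pairs on 1 kb correspond to 0.133 to 0.221 FPKM. These floors cover counting error only.

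Groups came from the labels. FPKM were summed by gene name, and genes with a mean of at least 1 FPKM over the 6 libraries were tested on log2(FPKM + 1), osteoblasts minus bone, with limma 3.58.1 in R 4.3.3 (lmFit, eBayes with a trend, Benjamini-Hochberg adjustment over all genes tested, threshold 0.05), and the script was tested on simulated data. A fold change on this scale understates changes of low genes. The libraries with *Hbb-bt* above 1000 FPKM were only described. Markers, gene lists and tests were chosen with earlier results of these data known. All 10 markers are named, genes of lists by role, and for each marker the 3 genes with the nearest profile. A few genes of the lists and profiles are not reported here. *Pdgfra* and *Prrx1* were read from unnamed features that cover over 90% of their RefSeq span. Other steps used Python 3.11.15, pandas 2.3.3, numpy 2.4.6 and matplotlib 3.10.9. The alternatives were a pseudocount of 0.1, no filter or a mean of at least 5 FPKM, TPM, scaling to the sum over named genes or to the 75th percentile, no trend, the replicate number as a block and leaving out each library. Adding the unnamed features to the table was chosen after the data were seen. Genes merged into unnamed features were otherwise not analysed here.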

Additional observations from a re-analysis of the deposited data

How the results depend on the processing

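The number of genes called between the labels was 0 under every setting except 3. It was 49 with the replicate block (46 higher under the label osteoblasts, 3 lower), 182 without bone replicate 3 and 300 without osteoblasts replicate 1, so leaving out a library gave 0 to 300, and the cause was not tested. None of the 8 markers was called under any of these. Of 115 values of the 8 genes under other settings, 102 kept their sign and 13 changed it. Leaving out a library moved *Thy1* from -0.44 to 0.22, *Eng* from -0.00071 to 0.72, *Mcam* from -0.48 to 0.63, *Gli1* from -0.085 to 0.84 and *Cspg4* from -0.38 to 0.38 (log2). *Cspg4* was also -0.043 with TPM, -0.13 after scaling to named genes and -0.054 after scaling to the 75th percentile, with 0.03 as reported. The median over all genes moved from 0.12 to -0.03 after scaling to named genes, so a difference is read relative to it. A mean of at least 5 FPKM left 4 of the 8 genes, and TPM left 7. *Gli1* has a mean TPM under the filter, so the number of tested markers that were higher in all 3 libraries rich in *Hbb-bt* was 0 with TPM in place of 1. Same-numbered libraries deviated together for replicates 1 and 3 (r = 0.841 and 0.830 across genes) and apart for replicate 2 (r = -0.747). These signs match the *Hbb-bt* levels, which are alike within replicates 1 and 3 and unlike within replicate 2. They therefore cannot show whether same-numbered libraries share a mouse, and the numbers were not taken to pair the samples. Without counts, depth limits mainly *Gli1*, at about 1.26 to 8.14 read pairs in its 3 lowest libraries.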

Other observations

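The features over the 10 markers differ in how much else they cover. RefSeq places a single protein-coding gene in 8 of them, whereas the features of *Eng* and *Gli1* each also touch the end of a neighbour on the other strand. The deposited feature of *Nt5e* starts at 88327197, before the RefSeq start at 88327609, and that of *Gli1* ends at 127341974, beyond the RefSeq end at 127341579. After rescaling to the sum over named genes, the lowest value of *Eng* moved from bone 2 to osteoblasts 3, at 13.3 FPKM, and its highest stayed in osteoblasts 1, at 38.8 FPKM. The lowest value of *Cspg4* moved from bone 2 to osteoblasts 3 at 7.61 FPKM and that of *Thy1* from bone 2 to osteoblasts 2 at 2.61 FPKM.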
